A study of Mus musculus with 7 samples.

Results

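The genes examined here are 10 members of the BCL2 family, which set whether a cell survives or dies through its mitochondria, chosen by name. Bcl2, Bcl2l1 and Mcl1 encode survival proteins, and Bcl2l11, Bak1, Bid, Bad, Bik, Pmaip1 and Bnip3l encode proteins that favour death. A probe named through RefSeq was found for 8 of the 10 genes, among 13923 genes so named. These were all 3 survival genes and 5 of the 7 death genes, each with 1 probe. Bcl2l11, which encodes BIM, and Bnip3l, which encodes the mitophagy receptor NIX, were not analysed here.

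The members act on 1 event, the opening of the outer mitochondrial membrane. BAK, the product of Bak1, and its relative BAX form the pores that release cytochrome c, which then activates caspases. BCL2, BCL-XL (the product of Bcl2l1) and MCL1 hold these pore formers back. BID, BAD, BIK and NOXA (the product of Pmaip1) carry only the short BH3 segment, with which they bind and neutralise the survival proteins or, for BID, activate the pore formers directly. In the mammary gland the balance is best known from involution, when the milk-secreting epithelium dies after weaning and BCL-XL and MCL1 are needed to keep it alive. Pmaip1, like Bax, is a target of p53.

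The levels were measured in mammary glands of 4-week-old female mice kept in serum-free organ culture, with 1 CodeLink array per group and 7 arrays in all. The groups were αERKO glands (ERα knockout, titled ESR1 KO), βERKO glands (ERβ knockout, titled ESR2 KO), wild-type C57 glands (WT) with DMBA, WT glands without DMBA after 10 and after 24 days, and wild-type BALB/c glands with and without vitamin D5. All but the WT 10-day glands were cultured for 24 days. Both knockouts were made on a C57BL6/129SV background and lack the receptor in all cells, not in the epithelium alone. For the 10 days of growth promotion the shared protocol supplied insulin and prolactin at 5 µg/ml each, with aldosterone and hydrocortisone at 1 µg/ml each, and for the 14 days of regression that followed insulin alone. DMBA, a polycyclic aromatic hydrocarbon carcinogen, was given at 2 µg/ml on Day 3 for 24 h. The titles name DMBA for 1 WT array only, whereas the study describes both knockout groups as DMBA-treated. Whether the BALB/c glands received DMBA is not stated, and the vitamin D5 dose is not given either. The mice of the 3 genotypes compared in the study received progesterone with EGF before culture according to its results, whereas the deposited protocol also describes estrogen with progesterone. The titles do not give the pretreatment of any array, so it may differ between arrays. RNA from 5 mice was pooled for each of the WT, αERKO and βERKO groups. According to the study's methods, the DMBA-treated WT and βERKO glands bore alveolar lesions and αERKO glands had none. The study describes the αERKO array as RNA of such lesion-free glands, although 1 sentence of its methods says that no αERKO samples could be taken for molecular work. Genotype and lesions cannot be told apart. There were no replicate arrays, so no ratio has a replicate check and no p-value is given.

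The level of a gene is given as the log2 of its background-subtracted intensity over the median gene probe of the same array, so that 0 is the level of the median probe. The median intensity lay between 39.1 and 53 over the 7 arrays, with 68.4% to 74.2% of gene probes called good, that is, above background. Of the 56 member spots, 55 were called good. The exception was Bcl2l1 on the WT 24-day array without DMBA, whose spot carried a contamination flag, and this value was left out. As a measure of error, the SD of a log2 ratio between 2 probes of the same accession lay between 0.20 and 0.69 over the 21 pairs of arrays and was higher in pairs with the αERKO array. It covers differences between probes, not between mice. Scaling arrays to their 75th percentile instead moved the median log2 ratio of all genes by -0.13 for vitamin D5 to 0.22 for BALB/c against WT. Counts of genes past 2-fold take values near background as measured. The Esr2 probe was called good on the array labelled βERKO, at a log2 level of 0.87, and near background on the αERKO array and the WT array with DMBA. The signal of the gene targeted in βERKO mice was thus not lower on this array than on the WT array with DMBA. Where the probe lies relative to the targeted part of Esr2 was not examined, so this signal does not settle the genotype. The array is called the array labelled βERKO throughout.

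The array held markers of several tissues, and their amounts differed between arrays. All 10 epithelial markers (keratins, claudins, Epcam and Cdh1) were called good on every array, and their summed level was 503 times the array median on the αERKO array and between 714 and 1825 times on the others. The summed level of 9 skeletal muscle genes was 2308 on the αERKO array, against 8.32 to 51.8 on the others. Lymphocyte markers summed to 72.1 there against 12.9 to 16.1, erythroid markers to 583 against 3.30 to 37.7, and macrophage markers to 61.9 against 119 to 284. The sums there for adipocyte (2393 against 176 to 1502) and fibroblast genes (401 against 12.4 to 203) were also the highest of the 7, and those for endothelium (44.8 against 3.57 to 46.5) and milk proteins (63.3 against 60.9 to 337) lay within the range of the other arrays. In such mixed tissue, fewer cells of a type and less RNA per cell cannot be told apart.

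**Figure D1:**
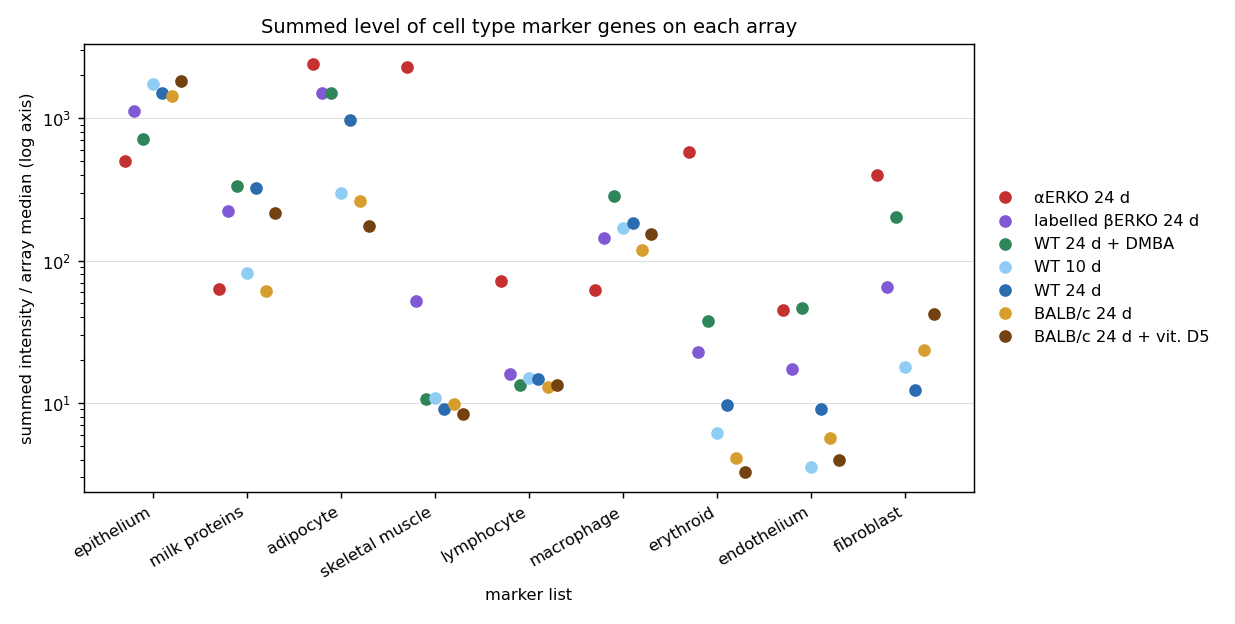
Summed level of the marker genes of 9 cell types or products on each of the 7 arrays. Each point is the sum of intensity over the array median for 1 list on 1 array, on a log axis. The αERKO array stands above the others for skeletal muscle (2308 against at most 51.8) and erythroid genes, and is the lowest for epithelium (503).

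RefSeq gave promoters for 7 of the 10 members, at 11 start sites, in build GRCm38.p6. The 250 bases before the start are printed for the survival genes Bcl2 and Mcl1 and the death genes Bak1 and Bid. Mcl1, Bak1 and Bid were past 2-fold in at least 1 of the comparisons that follow and Bcl2 in 0 of them. Bcl2l1, with several start sites, was past 2-fold as well and is not printed. Sequences run from 5′ to 3′ on the strand of the gene, and capitals mark the GC box GGGCGG on either strand, a promoter element bound by SP-family factors.
Bcl2 (chr1:106714291-106714540, minus strand): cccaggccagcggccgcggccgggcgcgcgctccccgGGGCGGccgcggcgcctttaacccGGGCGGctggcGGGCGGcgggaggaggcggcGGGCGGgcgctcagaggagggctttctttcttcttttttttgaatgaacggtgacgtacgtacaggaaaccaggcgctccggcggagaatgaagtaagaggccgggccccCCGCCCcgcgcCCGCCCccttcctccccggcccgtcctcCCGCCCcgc
Mcl1 (chr3:95658471-95658720, plus strand): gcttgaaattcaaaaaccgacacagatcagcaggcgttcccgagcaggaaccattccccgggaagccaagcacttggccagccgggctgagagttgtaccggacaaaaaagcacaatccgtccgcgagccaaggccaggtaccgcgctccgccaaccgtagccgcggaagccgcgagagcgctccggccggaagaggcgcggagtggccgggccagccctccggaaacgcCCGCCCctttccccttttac
Bak1 (chr17:27028628-27028877, minus strand): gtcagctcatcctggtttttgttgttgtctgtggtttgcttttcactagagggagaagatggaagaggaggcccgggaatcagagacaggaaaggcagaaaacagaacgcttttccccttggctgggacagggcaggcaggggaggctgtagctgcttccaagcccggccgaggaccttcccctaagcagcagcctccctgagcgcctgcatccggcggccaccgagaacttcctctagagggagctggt
Bid (chr6:120916825-120917074, minus strand): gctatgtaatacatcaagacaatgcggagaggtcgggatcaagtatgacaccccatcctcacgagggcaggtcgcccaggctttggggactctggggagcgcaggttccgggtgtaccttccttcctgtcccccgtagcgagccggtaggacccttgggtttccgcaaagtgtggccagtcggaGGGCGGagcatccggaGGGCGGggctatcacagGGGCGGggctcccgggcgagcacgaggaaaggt

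The Bcl2 sequence held 7 GC boxes and 74.8% G and C, the Bid sequence 3, the Mcl1 sequence 1 and the Bak1 sequence 0. Over all 11 start sites of members 6 held the element, against 32.7% of 32851 promoters of the same length. The palindromic STAT motif TTCNNNGAA was found at 0 of the 11 start sites (7.02% of all promoters), the core of the aryl hydrocarbon receptor element, GCGTG, at 4 (28.2%) and the nuclear receptor core motif AGGTCA at 1 (14.0%), each searched on both strands. These are matches of letters and describe no binding.

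Among the survival genes, Mcl1 (probe GE33996), whose short-lived protein must be made continuously, lay at 4.23 in αERKO, 5.66 on the array labelled βERKO, 5.37 on the WT array with DMBA, 4.98 on the WT 10-day array, 5.42 on the WT 24-day array, 4.25 on the BALB/c array and 4.71 in BALB/c glands with vitamin D5. Its lowest values were thus those of the αERKO and BALB/c arrays, which differed by 0.02, and the other 5 arrays were all higher. Bcl2l1 (GE35111) was the dimmest member, at -1.20 in αERKO, 0.43 on the array labelled βERKO, 0.79 on the WT array with DMBA, 0.35 on the WT 10-day array, -0.94 on the BALB/c array and -0.35 in BALB/c glands with vitamin D5. On the αERKO array it was close to the lowest value called good there, -1.47. The same arrays were thus at the bottom for both genes. Bcl2 (GE35110) spanned only 1.07, with 1.64 in αERKO, 1.97 on the array labelled βERKO, 2.41 on the WT array with DMBA, 2.70 on the WT 10-day array, 2.41 on the WT 24-day array, 2.36 on the BALB/c array and 2.71 in BALB/c glands with vitamin D5. Ranked by level, none of its 6 pairs of neighbouring arrays differed by more than the SD between probes. Some arrays further apart in this ranking did. The log2 ratio of αERKO to WT with DMBA was -0.77 against an SD of 0.61, and that for vitamin D5 was 0.35 against 0.23.

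Among the death genes, Bak1 (GE33447), the pore former, stood out by 1 low array. It lay at 0.61 in αERKO, 1.97 on the array labelled βERKO, 2.27 on the WT array with DMBA, 2.25 on the WT 10-day array, 2.37 on the WT 24-day array, 1.97 on the BALB/c array and 2.17 in BALB/c glands with vitamin D5. The gap of 1.37 between the αERKO array and the next exceeded the SD between probes of 0.60, and no other pair of neighbours did. Pmaip1 (GE37968) had the widest span of the members, 2.56 or 5.88-fold, with 1.59 in αERKO, 3.78 on the array labelled βERKO, 2.31 on the WT array with DMBA, 4.02 on the WT 10-day array, 3.67 on the WT 24-day array, 3.21 on the BALB/c array and 4.14 in BALB/c glands with vitamin D5. The αERKO array and the WT array with DMBA lay apart from each other and from the rest, by gaps of 0.72 and 0.90 that exceeded the SD between probes (0.61 and 0.40). The BALB/c array in turn lay 0.46 below the next array, WT after 24 days without DMBA, against an SD of 0.33.

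Bid (GE34781), which links death receptors to mitochondria once cleaved by caspase-8, lay at 1.91 in αERKO, 3.15 on the array labelled βERKO, 2.71 on the WT array with DMBA, 2.37 on the WT 10-day array, 2.95 on the WT 24-day array, 1.88 on the BALB/c array and 2.30 in BALB/c glands with vitamin D5. Bad (GE33446), which growth factor signalling silences by phosphorylation, followed a similar order, from 0.83 on the BALB/c array and 1.09 with vitamin D5, through 1.22 on the WT 10-day array, 1.41 on the αERKO array, 1.71 on the WT 24-day array and 1.74 on the WT array with DMBA, to 1.94 on the array labelled βERKO. Both were lowest on the BALB/c array and highest on the array labelled βERKO. For Bid the BALB/c array lay only 0.03 below the αERKO array, against an SD between probes of 0.60. Bik (GE33455), a BH3-only protein of the endoplasmic reticulum, was highest on the WT array with DMBA, at 3.78, and lowest on the αERKO array, at 2.50. Its other values were 3.08 on the array labelled βERKO, 3.03 on the WT 10-day array, 3.02 on the WT 24-day array, 2.82 on the BALB/c array and 3.29 on the BALB/c array with vitamin D5, and neighbours among these 5 did not differ beyond the SD between probes. The outermost of them, BALB/c without and with vitamin D5, did, with a log2 ratio of 0.47 against an SD of 0.23.

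Over the 7 members measured on all arrays, 5 had their lowest value on the αERKO array and 2 on the BALB/c array, against 36.5% and 21.4% of 12767 genes. These arrays differed by only 0.02 for Mcl1 and 0.03 for Bid, so the place of both genes in this count is not settled. On the array labelled βERKO 3 of the 7 had their highest value (15.6% of genes), and on the αERKO array 0 (20.9%).

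**Figure D2:**
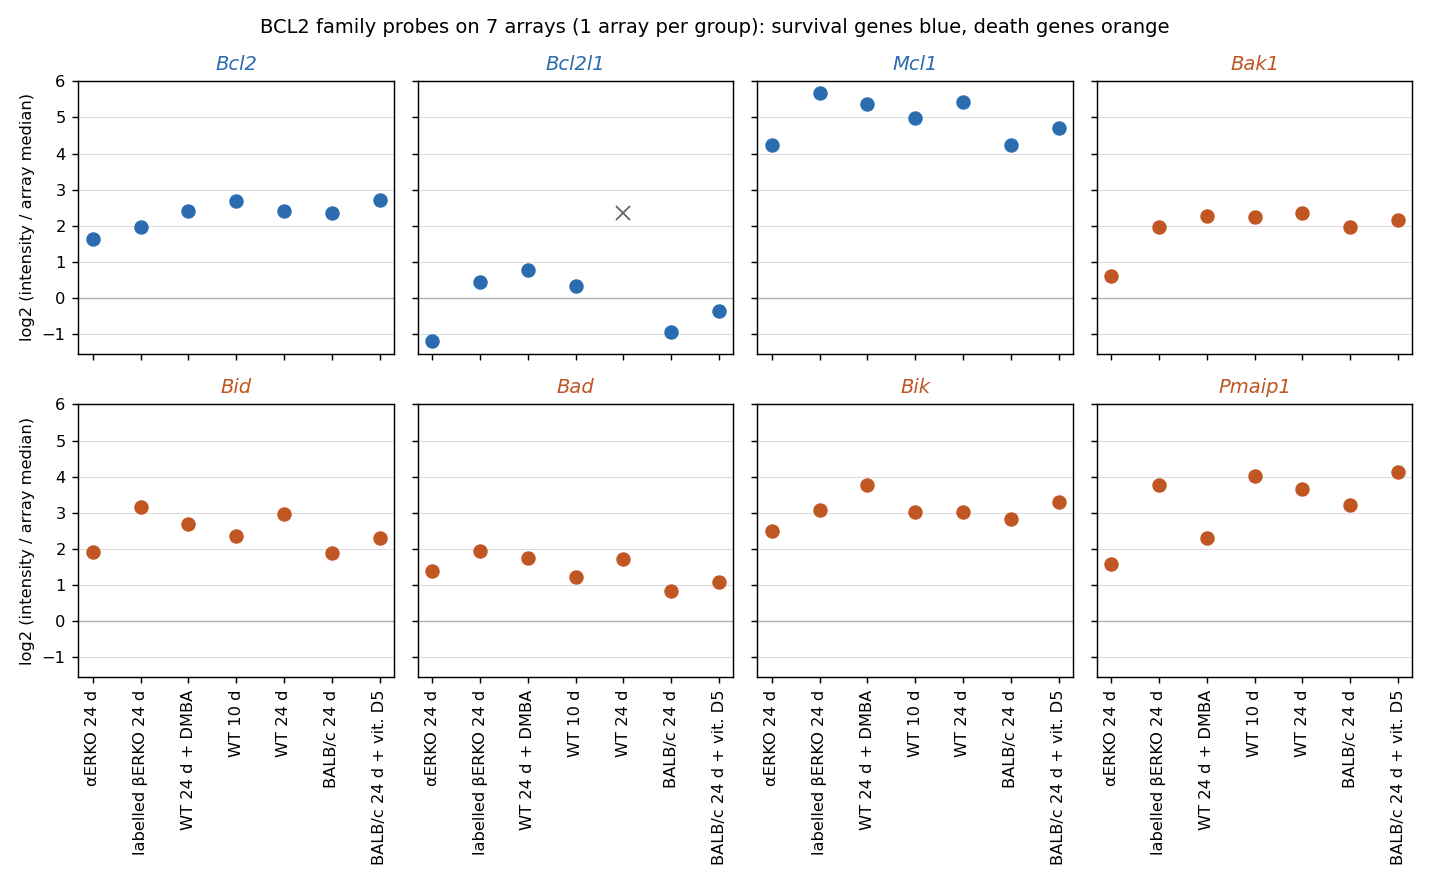
Log2 level (intensity over the array median) of the 8 measured members on the 7 arrays, 1 point per array, with survival genes in blue and death genes in orange. The cross is the flagged Bcl2l1 spot, which was left out. Bak1 is low on the αERKO array alone (0.61), Pmaip1 is low on the αERKO array and the WT array with DMBA (1.59 and 2.31), and Bcl2 spans only 1.07.

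The comparison of αERKO with WT glands asks what accompanies the loss of ERα in glands that the study describes as DMBA-treated. Only the title of the WT array names DMBA. All 8 measured members were lower on the αERKO array than on the WT array with DMBA. Of 12073 genes 40% lay above 0, and 15.3% were more than 2-fold lower and 10.3% higher. After scaling to the 75th percentile the shares past 2-fold were 12.4% lower and 11.9% higher. Of the 8 members 4 were more than 2-fold lower. These were Bcl2l1, 3.96-fold lower (log2 ratio -1.99), Bak1, 3.16-fold lower (-1.66), Bik, 2.43-fold lower (-1.28), and Mcl1, 2.20-fold lower (-1.14). The other log2 ratios were -0.79 for Bid, -0.77 for Bcl2, -0.72 for Pmaip1 and -0.34 for Bad, and only that of Bad lay within the SD between probes of 0.61. The median was -1.14 over the 3 survival genes and -0.79 over the 5 death genes, against -0.17 over all genes. Survival and death genes were thus both lower, and the difference between the 2 medians was not tested. With array backgrounds modelled by normexp the ratio of the dim Bcl2l1 probe moved to -0.83, and with cyclic loess that of Mcl1 moved to -0.95.

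The pore former Bax, outside the member list, was lower on the αERKO array as well, with a log2 ratio of -2.05. Of 12 other relatives of the family measured, it was the only one more than 2-fold lower, and Bcl2l14 was the only one more than 2-fold higher, at 1.26. Among the 15 genes of caspases and the apoptosome reported here 2 were more than 2-fold lower and 0 higher. Casp9, the initiator caspase of the mitochondrial pathway, had a log2 ratio of -1.16. For Apaf1, the scaffold that activates caspase-9, the αERKO spot was near background and the level at least 2.79-fold lower. Cycs, which encodes cytochrome c, had a log2 ratio of 0.11. Among 9 genes of death receptor signalling 2 were lower and 1 higher. The TNF receptor gene Tnfrsf1a had a log2 ratio of -1.30, Tnf was at least 1.41-fold lower, its αERKO spot being near background, and Fasl, a ligand made by T cells, was at least 3.00-fold higher there. On this array skeletal muscle genes were higher, 9 of 9 by more than 2-fold, as were 6 of 8 lymphocyte genes, and 5 of 10 epithelial markers were more than 2-fold lower with 0 higher, with a median log2 ratio of -1.06. All 4 milk protein genes and all 3 macrophage markers were more than 2-fold lower. Their part in the members' ratios was not tested.

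Against the array labelled βERKO, all 8 members were again lower on the αERKO array, and 5 were more than 2-fold lower, when 20.2% of 11886 genes were lower by as much and 11.8% higher (15.7% and 14.1% after scaling to the 75th percentile), and 35% lay above 0. Pmaip1 was 4.58-fold lower (log2 ratio -2.19), Bcl2l1 3.10-fold (-1.63), Mcl1 2.70-fold (-1.43), Bak1 2.58-fold (-1.37) and Bid 2.37-fold (-1.24). Bik, at -0.58, Bad, at -0.54, and Bcl2, at -0.33, were within 2-fold. The median was -1.43 over the survival genes and -1.24 over the death genes, against -0.30 over all genes. Bax had a log2 ratio of -3.12, the only one of 12 other relatives past 2-fold. Of the 14 caspase and apoptosome genes reported here 0 were past 2-fold, and among 9 death receptor genes 3 were lower, among them Tnfrsf1a at -1.46 and the TRAIL receptor Tnfrsf10b at -1.37, and 1 was higher. On the αERKO array 8 of 10 epithelial markers and 3 of 3 milk protein genes were more than 2-fold lower. More than 2-fold higher there were 9 of 9 skeletal muscle, 6 of 6 fibroblast, 6 of 8 lymphocyte, 3 of 5 endothelial and 2 of 2 erythroid genes, and their part was not tested. The αERKO array is shared by both comparisons, so they are not independent, and with normexp only 3 members were past 2-fold here. The ratio of the dim Bcl2l1 probe moved to -0.60 and that of Bak1 to -0.91. With cyclic loess the ratio of Bid moved to -0.91 and that of Bcl2 to -0.0014.

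The comparison of the array labelled βERKO with WT plus DMBA split the members, with 4 higher and 4 lower around a median log2 ratio of -0.05, when 62.3% of genes lay above 0. Only Pmaip1 was past 2-fold, 2.77-fold higher on the array labelled βERKO (log2 ratio 1.47), when 6.55% of 11976 genes were more than 2-fold higher and 7.3% lower. Bid, at 0.45, was also above the SD between probes of 0.38, and Bik, at -0.70, and Bcl2, at -0.44, were below it. Mcl1, at 0.30, Bad, at 0.20, Bak1, at -0.29, and Bcl2l1, at -0.35, lay within it. Bax was the only one of 12 other relatives past 2-fold, with a log2 ratio of 1.08. Of 8 death receptor genes only Tnfrsf10b was past 2-fold, at 1.12, and of 15 caspase and apoptosome genes only Apaf1, which was near background on the array labelled βERKO and at least 3.11-fold lower there. These directions depend on an array labelled βERKO on which the Esr2 probe was called good. Skeletal muscle genes were more than 2-fold higher on this array for 6 of 7, and more than 2-fold lower were 5 of 6 fibroblast and 5 of 5 endothelial genes. Their part was not tested.

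For DMBA the WT 24-day arrays with and without it were compared, and whether their pretreatment was the same is not stated. Of 7 members compared only Pmaip1 was past 2-fold, 2.56-fold lower with DMBA (log2 ratio -1.36), when 7.77% of 12064 genes were more than 2-fold lower and 11.6% higher (5.55% and 13.4% with cyclic loess). Bik was the highest, at 0.76, above the SD between probes of 0.31. The other 5 lay within it, at 0.03 for Bad, 0.00 for Bcl2, -0.05 for Mcl1, -0.10 for Bak1 and -0.25 for Bid. Bcl2l1 was not compared, since its spot on the array without DMBA was flagged. Taken at face value, that spot would give a log2 ratio of -1.58. Among 11 other relatives Bax was more than 2-fold lower, at -1.57. The survival gene Bcl2a1b, whose near-identical copies the probe may not separate, was higher, at 1.33, as was the pore-forming relative Bok, at 1.08. Tnfrsf10b, at -1.38, was the only one of 8 death receptor genes past 2-fold, and 0 of 15 caspase and apoptosome genes were. On the array with DMBA 6 of 6 fibroblast and 5 of 5 endothelial genes, 5 of 7 adipocyte genes and 2 of 3 macrophage markers were more than 2-fold higher and 6 of 10 epithelial markers more than 2-fold lower, and their part was not tested. The WT array with DMBA also serves as the control for both knockouts, so the low Pmaip1 level on it enters all 3 comparisons: -1.36 for DMBA, 1.47 for the array labelled βERKO and -0.72 for αERKO. For Bax the values were -1.57, 1.08 and -2.05, and for Tnfrsf10b -1.38, 1.12 and -0.24.

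**Figure D3:**
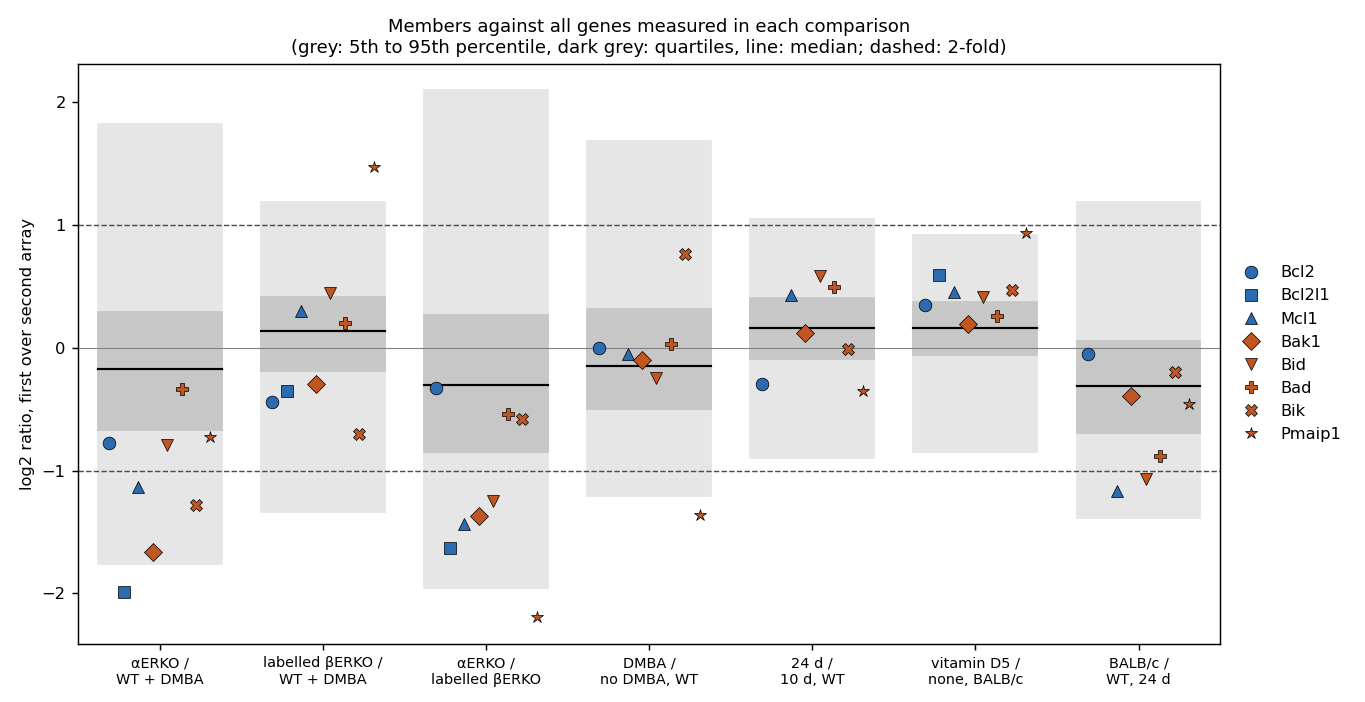
Log2 ratio of each measured member in the 7 comparisons, first over second array, 1 symbol per gene with survival genes in blue and death genes in orange. The grey band spans the 5th to the 95th percentile of all genes measured, dark grey the quartiles, and the black line the median; dashed lines mark 2-fold. All 8 members lie below the median of all genes in both αERKO comparisons and above it for vitamin D5, and Pmaip1 lies at -1.36 for DMBA.

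Culture for 24 against 10 days, both without DMBA, compares the end of the insulin-only regression phase with the end of growth promotion. None of the 7 members compared was past 2-fold, when 9.81% of 11796 genes were. Bid, at a log2 ratio of 0.59, Bad, at 0.49, and Mcl1, at 0.43, were higher at 24 days by more than the SD between probes of 0.24. Pmaip1, at -0.35, and Bcl2, at -0.29, were lower by more than it, and Bak1, at 0.12, and Bik, at -0.01, lay within it. The median over all genes was 0.16. Of 12 other relatives 0 and of 7 death receptor genes 0 were past 2-fold. Of 15 caspase and apoptosome genes Apaf1 was higher, at 1.10, and Birc5, which encodes the mitotic protein survivin, was lower, at -1.80. Adipocyte genes were more than 2-fold higher at 24 days for 6 of 7, and their part was not tested.

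Vitamin D5 in BALB/c glands left all 8 members within 2-fold, when 8.59% of 12020 genes were past it (4.3% higher and 4.29% lower, or 0.591% and 0.2% with normexp). All 8 were nevertheless higher on the array with vitamin D5, which held for 69.1% of all genes, and all 8 lay above the median of all genes, 0.16. Pmaip1 came closest to 2-fold, at a log2 ratio of 0.93, followed by Bcl2l1 at 0.59, Bik at 0.47, Mcl1 at 0.46, Bid at 0.41, Bcl2 at 0.35, Bad at 0.26 and Bak1 at 0.20. Of these only that of Bak1 was within the SD between probes of 0.23, and the medians of survival and death genes were 0.46 and 0.41. After scaling to the 75th percentile all 8 were still above 0, with a median of 0.31. Among the other genes, Birc3, an inhibitor of apoptosis, had a log2 ratio of 1.12 and Tnf of 1.15. The BH3-only gene Bmf and Apaf1 were near background without vitamin D5 and at least 1.74-fold and 2.42-fold higher with it. These were the only genes past 2-fold of 12 relatives, 16 caspase and apoptosome genes and 8 death receptor genes. Milk protein genes were more than 2-fold higher with vitamin D5 for 4 of 4 and fibroblast genes for 3 of 6, and their part was not tested.

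BALB/c glands were set against WT C57 glands, both after 24 days, although the DMBA treatment of the BALB/c glands is not stated and strain and treatment cannot be told apart. All 7 members compared were lower on the BALB/c array, and 2 were past 2-fold, Mcl1, 2.24-fold lower (log2 ratio -1.17), and Bid, 2.10-fold lower (-1.07), when 12.1% of 11990 genes were more than 2-fold lower and 6.18% higher (7.13% and 7.81% after scaling to the 75th percentile) and 28% lay above 0. With this scaling they moved to -0.95 and -0.85, inside 2-fold. Bad followed at -0.88, Pmaip1 at -0.46, Bak1 at -0.39, Bik at -0.20 and Bcl2 at -0.05, and the ratios of Bik and Bcl2 turned to 0.02 and 0.17 with it. The median over all genes was -0.31. Of 11 other relatives only Bax was past 2-fold, at -1.07. Of 16 caspase and apoptosome genes Birc5 was higher, at 2.35, Diablo, whose product relieves inhibition of caspases, was lower, at -1.16, and Apaf1 was near background on the BALB/c array and at least 4.48-fold lower. None of 8 death receptor genes was past 2-fold. Bcl2l1 was not compared here either. Taken at face value, the flagged WT spot would give a log2 ratio of -3.30. Adipocyte genes were more than 2-fold lower on the BALB/c array for 6 of 7 and macrophage markers for 2 of 3, and their part was not tested.

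**Figure D4:**
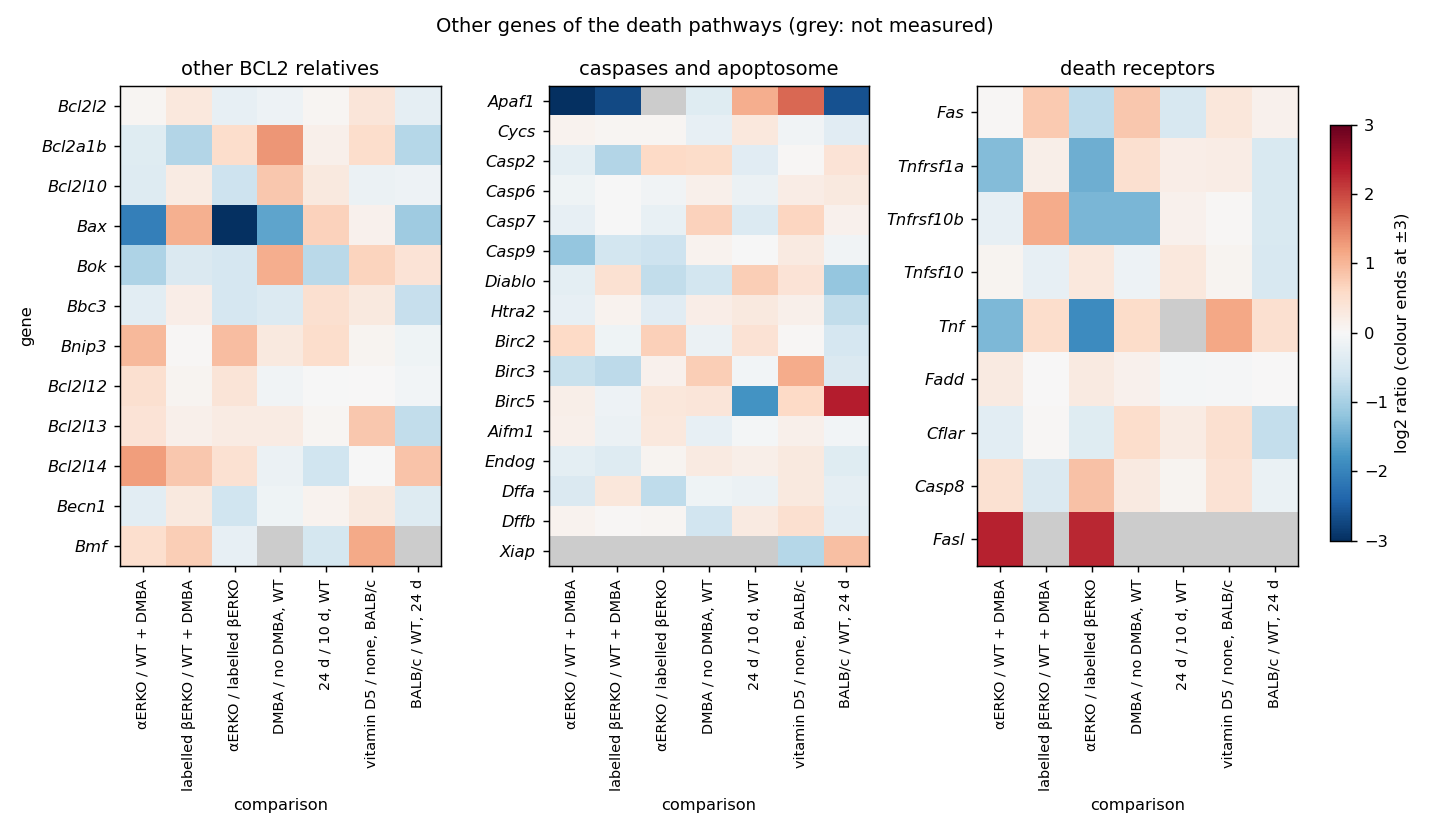
Log2 ratios of the other BCL2 relatives, caspase and apoptosome genes and death receptor genes (rows) in the 7 comparisons (columns), red for higher and blue for lower on the first array, with colours ending at 3 in both directions and grey where a gene was not measured. Bax is at -3.12 for αERKO against the array labelled βERKO and at -2.05 for αERKO against WT. It is at 1.08 for the array labelled βERKO against WT, where that array comes first. Most caspase genes stay within 2-fold, as do most of all genes, of which 8.59% to 31.9% are past it. Apaf1, Fasl and Tnf were near background on 1 array of several comparisons.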

How the data were processed

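Intensities were those that the authors deposited for each of 7 CodeLink Mouse Whole Genome arrays: per the file headers, a spot mean, a local background median, their difference, a normalized intensity and a quality call by CodeLink Expression Analysis software. The difference was divided here by the median of 34967 gene probes of the array, values not above 0 were set to the smallest positive one, and log2 was taken. Spots whose call was neither good nor near background (278 to 453 per array) were left out, and a gene entered a comparison where its spot was good on at least 1 of both arrays. RefSeq's mouse table (GRCm38.p6) named 14763 of 15553 probes with a RefSeq accession; where a gene had several probes, the brightest stands for it. Since every group was a single array, genes past 2-fold were counted without a test. For a gene near background on 1 of both arrays the fold is a lower bound, taken against the higher of its own value and the lowest good value there.

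The members and lists were chosen with earlier results of these data known. Named genes are the members, Esr1 and Esr2, up to 4 genes past 2-fold per list of relatives, caspases and apoptosome, or death receptors and comparison, and the 2 genes closest in profile to each member good on all arrays that spanned at least 1; genes near background on 1 array and Cycs were named after their values were seen. Lists of regulators, p53 targets, hypoxia genes and 9 cell types were also used. The deposited series table, whose rows name no probe, was not used. Probe sequences and proteins were not used here, and 1 gene of the list of caspases and apoptosome is not reported here. Alternatives were 11 planned ones and 1 added after seeing the data, which kept flagged spots. Python 3.11.15, pandas 2.3.3, R 4.3.3 and limma 3.58.1 were used, and the counting was tested on simulated data.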

Additional observations from a re-analysis of the deposited data

How the results depend on the processing

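All 84 counts under the alternatives were compared with the counts reported, and 65 were within 1.5 times of them. Part of this agreement was fixed in advance. Each measured member had 1 probe, and all of its spots that were kept were called good. Averaging probes, requiring good spots on both arrays and raising values near background thus could not change a count of members. The deposited normalized intensity nearly repeats the scaling to the median. Scaling to the 75th percentile, quantile normalization and cyclic loess each left 0 of 7 members past 2-fold between BALB/c and WT, in place of 2. Of all genes 14.8% to 15.8% were past 2-fold there under these. With normexp 1 member was past it there (4.69% of all genes), and 3 in place of 5 between αERKO and the array labelled βERKO (17.4%). A threshold of 1.5-fold gave 2 of 7 members for DMBA (38.8% of all genes) and 7 of 8 for αERKO against WT (45.1%). For the array labelled βERKO against WT it gave 2 of 8 (28.0%). The count was 1 of 7 for culture time (22.8%) and 2 of 8 for vitamin D5 (18.6%). A threshold of 3-fold gave 2 of 8 for αERKO against WT (12.6%) and 2 of 8 against the array labelled βERKO (16.0%). For DMBA it gave 0 of 7 (8.30%) and between BALB/c and WT 0 of 7 (6.67%). For the array labelled βERKO against WT it gave 0 of 8 (6.72%). Without a filter, or with flagged spots kept, Bcl2l1 entered and gave 2 members for DMBA, 1 for culture time and 3 between BALB/c and WT, where its log2 ratio was -3.30. Without a filter 22.2%, 14.3% and 21.6% of all genes were past 2-fold in these comparisons. Under the 5 other scalings and background corrections, which act on every ratio, 260 of 265 ratios stayed within the SD between probes of the value reported, and none of those past 2-fold changed sign. All 8 members stayed below 0 in both αERKO comparisons and above 0 for vitamin D5 under these 5, though Bcl2 between αERKO and the array labelled βERKO came to -0.0014 with cyclic loess. For the 75th percentile and the deposited normalized intensity, staying within the SD was fixed in advance. They move all ratios of a comparison alike, by at most 0.22 and 0.0049, both for BALB/c against WT, where the SD was 0.33. No paired analysis was possible because each group has 1 array. Dim spots limit Bcl2l1 most, with an intensity of 17.0 on the αERKO array over a background near 81.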

Other observations

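The other lists of the survival and death pathways are given by their counts, without those for culture time and vitamin D5. Between BALB/c and WT 3 of 15 regulators were more than 2-fold lower and 1 higher, and 2 of 11 p53 targets lower and 0 higher. Of 10 hypoxia genes 3 were higher there and 0 lower, when 12.1% of all genes were lower and 6.18% higher. With DMBA 3 of 15 regulators were lower and 1 higher (11.6% of all genes). Of 14 regulators of the members measured between αERKO and WT, 8 were more than 2-fold lower and 0 higher, with a median log2 ratio of -1.19 against -0.17 over all genes. Among them, named after their values were seen, were the log2 ratios of Stat3, which drives mammary involution, at -2.66, and Trp53, which encodes p53, at -1.83. Of 11 p53 targets 9 were lower and 0 higher, with a median of -1.63, and 4 of 10 were higher and 0 lower when the array labelled βERKO was set against WT, with a median of 0.59. With DMBA 1 of 11 was lower and 0 higher, and the median was -0.70. When αERKO was set against the βERKO-labelled array, 9 of 14 regulators and 9 of 10 p53 targets were lower and 0 higher, with medians of -1.30 and -2.29 against -0.30 over all genes. Of 10 hypoxia genes 7 were lower in that comparison and 0 higher, with a median of -1.20, and 4 were higher and 0 lower between the βERKO-labelled array and WT, with a median of 0.78 against 0.14. With DMBA 3 hypoxia genes were lower and 0 higher, with a median of -0.75 against -0.15, and in αERKO against WT 3 were lower and 1 higher, with a median of -0.68. Over all genes 7.77% were more than 2-fold lower with DMBA, 15.3% in αERKO against WT and 20.2% against the array labelled βERKO, and 6.55% were higher for the latter against WT.

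Over the 7 arrays, the genes whose centred log2 profiles lay closest to those of members, among 9337 others good on all arrays, differed from them by root mean squares of 0.04 to 0.21. For Bid the closest were Usp38 (0.039) and Rexo2 (0.077), for Mcl1 BC031181 (0.052) and Ilvbl (0.089), for Bad Csgalnact2 (0.055) and Slc35a2 (0.063), and for Bak1 Sppl3 (0.073) and Glg1 (0.075). For Bcl2 they were Snd1 (0.085) and Brd3 (0.088), for Bik Pik3r2 (0.096) and Creb3l4 (0.11), and for Pmaip1, with the largest distances, Dusp8 (0.20) and Slc1a1 (0.21). All genes share the 7 arrays and their differences in tissue makeup.

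The Esr1 probe was called good on 2 of the 7 arrays, WT with DMBA (log2 level -1.02) and BALB/c with vitamin D5 (-0.74), and Esr2 on 2, the array labelled βERKO (0.87) and the WT 24-day array without DMBA (-0.55). The contaminated Bcl2l1 spot read 232 before scaling on the WT 24-day array without DMBA, against 17.0 to 88.9 on the other 6 arrays.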
